A study of Homo sapiens with 8 samples.

Results

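The death receptors and their adaptors are taken here as 10 genes. They are the receptor genes TNFRSF21, TNFRSF10A, TNFRSF10B, TNFRSF1A, TNFRSF1B and FAS, the genes of the adaptor FADD, the protease CASP8 and its regulator CFLAR, and the ligand gene TNFSF10. Members were every probe set, the unit of an Affymetrix array that measures 1 transcript with several short probes, whose annotation gave 1 of these symbols. This gave 28 probe sets of 22215 tested, for 9 of the 10 genes, out of 11963 genes in all. TNFRSF10A was not analysed here. CFLAR had 11 probe sets, FAS 4, TNFRSF10B and TNFSF10 3 each, TNFRSF21 and CASP8 2 each, and TNFRSF1A, TNFRSF1B and FADD 1 each. The name of 14 of the 28 ends in _x_at, which marks probes that can also bind other transcripts.

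Death receptors are members of the tumour necrosis factor receptor family that carry a death domain on the inner side of the membrane. When a ligand such as TRAIL, the product of TNFSF10, binds its receptor, FADD is recruited and brings CASP8 molecules together, which then cleave and activate one another. CFLAR, an inactive relative of CASP8, enters the same complex and limits this step. In myeloid cells TNF receptors also signal to inflammatory genes through NF-kB, so the family is known for survival signals as well as for death.

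The 8 arrays measured RNA of 2 leukemia cell lines in RPMI-1640 culture with serum, HL-60 (labelled promyelocytic leukemia) and THP-1 (labelled monocytic leukemia). Each line was kept for 48 h with DMSO or with 100 µM diclofenac, which blocks cyclooxygenase enzymes and is used against inflammation. Each of the 4 groups (HL-60 DMSO, HL-60 diclofenac, THP-1 DMSO, THP-1 diclofenac) had 2 arrays titled biological replicates, and a single dose and time were used. No cell line was genetically altered per the labels, and the series title ties the drug's effects in acute myeloid leukemia cells to apoptosis, differentiation and the transcription factor AP-1. Nothing says that replicates came from separate cultures beyond that title, so p-values measure the spread between these arrays. In such bulk samples, fewer cells of a type and less RNA per cell cannot be told apart.

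The deposited values are linear intensities, given below as deposited for each array. The background of an array was the 95th percentile of 27 probe sets for bacterial transcripts, which the cells do not make, and "above background" refers to it. THP-1 DMSO replicate 2 stood apart: its background was 238.63 against 33.23 to 60.2 on the other 7 arrays, and 15 of the 28 member probe sets were above it, against 21 to 26. Its correlation with its replicate over all probe sets was 0.898, where the other pairs had 0.977 to 0.984, so results resting on it are given without it too. Of the promyelocytic markers, ELANE, AZU1, PRTN3, CTSG and MS4A3 were above background on all 8 arrays. MPO was at 40.6 to 61.2 on the HL-60 arrays and at 170.6 to 235.6 on the THP-1 arrays. Of the monocytic markers, CD14 was above background on 0 HL-60 arrays and 3 THP-1 arrays, and HLA-DRA was at 4.5 to 52.2 in HL-60 and 539.3 to 561.2 in THP-1. MEIS1 was higher on the arrays labelled HL-60 (635.3 to 684.3) than on those labelled THP-1 (237.5 to 383.8). AZU1 was at 1177.8 to 1622.3 in HL-60 and 7212.9 to 9350.6 in THP-1, and PRTN3 was higher in THP-1 as well, with log2 differences of 2.47 and 1.66 under DMSO (limma adjusted p = 2.5e-06 and 4.5e-06). ELANE and MS4A3 were higher in THP-1 under DMSO too (0.28 and 0.41, limma adjusted p = 0.013 and 0.017). CTSG was lower in THP-1 (-0.35, limma adjusted p = 0.0074) and CSF1R higher (1.24, adjusted p = 0.045). LYZ, CD86 and FCGR1A did not pass. The MPO, AZU1, PRTN3, ELANE, MS4A3 and MEIS1 levels go against the usual picture of these lines. The CTSG, CSF1R, CD14 and HLA-DRA levels go with it. Because the markers are split, "HL-60" and "THP-1" below mean the arrays with those labels. Of the other cell types, ALAS2 (erythroid), EPCAM and KRT19 (epithelial) and COL3A1 (fibroblast) were above background on 0 of 8 arrays and KRT18 (epithelial) on 1. COL1A1 (fibroblast) was above it on all 8 arrays, at 43.6 to 336.6. The lymphoid genes were above it on 3 HL-60 and 3 THP-1 arrays (MS4A1), 2 and 1 (CD3D) and 1 and 3 (CD79A). The part of such cells in the results was not tested.

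Promoter stretches of 3 members are printed here. TNFRSF21 and TNFRSF1B had higher intensities on both diclofenac arrays than on both DMSO arrays in each line. So did TNFRSF10B 209295_at, of which no stretch is printed. FAS is shown because its stretch holds a match to the letters searched for AP-1, the factor named in the series title. Each is the 250 bases before a RefSeq start site in GRCh38.p14, printed 5′ to 3′ in the direction of the gene. Capitals mark matches on either strand to 3 motifs. AP-1 letters were searched loosely as TGANTCA, where N is any base, so a match need not be an AP-1 site. A GC box was searched as GGGCGG. The core promoter element known as the TATA box was searched by the letters TATAAA.
TNFRSF21 (chr6:47309906-47310155, minus strand): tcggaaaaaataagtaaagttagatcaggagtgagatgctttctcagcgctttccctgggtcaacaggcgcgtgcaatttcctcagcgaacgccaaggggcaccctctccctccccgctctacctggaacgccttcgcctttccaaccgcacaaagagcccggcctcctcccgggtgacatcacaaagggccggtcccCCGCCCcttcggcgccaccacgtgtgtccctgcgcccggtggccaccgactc
TNFRSF1B (chr1:12166741-12166990, plus strand): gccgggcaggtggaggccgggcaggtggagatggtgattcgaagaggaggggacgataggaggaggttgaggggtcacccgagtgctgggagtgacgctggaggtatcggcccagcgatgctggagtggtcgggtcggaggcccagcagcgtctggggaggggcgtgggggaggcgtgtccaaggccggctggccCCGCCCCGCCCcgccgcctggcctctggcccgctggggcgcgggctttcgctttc
FAS (chr10:88990548-88990797, plus strand): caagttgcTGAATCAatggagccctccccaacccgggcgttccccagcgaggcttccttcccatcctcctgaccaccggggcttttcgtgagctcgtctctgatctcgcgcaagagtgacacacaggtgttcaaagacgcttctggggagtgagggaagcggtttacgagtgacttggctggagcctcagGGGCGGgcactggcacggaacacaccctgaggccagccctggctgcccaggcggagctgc
The TNFRSF21 stretch held 1 GC box and 0 AP-1 letters, the TNFRSF1B stretch 2 GC boxes that overlap, and the FAS stretch 1 AP-1 match and 1 GC box. Over the 15 RefSeq start sites of 8 members, 3 windows held AP-1 letters (1 each of FAS, CFLAR and CASP8), 9 a GC box and 2 a TATA box. Among 35116 windows of the same length over all genes the shares were 6.57%, 42.6% and 10.7%. The member windows are not independent: the FAS windows that start at 88990548 and 88990664 overlap and share a GC box. Other windows of FAS, CFLAR and CASP8 held no AP-1 letters. The counts are therefore a description. The FAS and CFLAR matches to the AP-1 letters read TGAATCA, and the CASP8 match read TGACTCA. A match describes letters in this window and is no measured binding site.

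TNFRSF21, a death domain receptor studied in neurons and lymphocytes, had the widest range of group means among the 28 probe sets. Probe set 218856_at had intensities of 851.8 and 950.8 with DMSO and 1578.9 and 1586.6 with diclofenac in HL-60. The THP-1 intensities were 15.3 and 97.9 with DMSO and 330.2 and 223.6 with diclofenac. The 4 groups did not overlap: HL-60 lay above THP-1 under either treatment, and diclofenac lay above DMSO in either line. Neither THP-1 DMSO value was above the background of its array.

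The second TNFRSF21 probe set, 214581_x_at, had 578.4 and 503.8, then 623.8 and 777.5 in HL-60. THP-1 gave 43.1 and 56.4 with DMSO and 359.3 and 271.7 with diclofenac, the same order of groups. Its THP-1 DMSO value was above background on replicate 1 and below it on replicate 2.

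The THP-1 change of TNFRSF21 was known when the genes were grouped, so its values there and between the lines are a description without a test. On the log2 scale of quantile-normalized intensity plus 50, diclofenac minus DMSO in THP-1 was 2.04 ± 0.23 (SE, n = 2 arrays per group) for 218856_at, at least 2.64-fold higher. That bound sets the diclofenac mean against the lowest signal above background on the DMSO arrays. For 214581_x_at it was 2.19 ± 0.29, and without THP-1 DMSO replicate 2 the values were 2.28 and 1.91. In HL-60 the change was 0.77 ± 0.23 for 218856_at (1.70-fold, limma adjusted p = 0.83) and 0.37 ± 0.29 for 214581_x_at (adjusted p = 1.0), neither past the threshold of 0.05. The HL-60 values of both probe sets were higher on 2 of 2 diclofenac arrays than on either DMSO array. THP-1 minus HL-60 was -3.51 (at least 7.34-fold lower) and -2.80 under DMSO, and -2.24 and -0.99 under diclofenac. The THP-1 change minus the HL-60 change was 1.27 ± 0.33 and 1.82 ± 0.42. Of the 7 of 9 monocytic markers measured, CD14 was higher with diclofenac in THP-1 without overlap (55.6 and 45.2, then 332.9 and 310.5). CD86 (92.5 and 373.1, then 78.6 and 90.2) and MEIS1 were lower, and the other 4, HLA-DRA, CSF1R, LYZ and FCGR1A, overlapped. The CD86 value of 373.1 came from THP-1 DMSO replicate 2. The summed intensity of the measured markers without LYZ, which outweighs the rest, was 1385.1 (replicate 1) and 1965.8 (replicate 2) with DMSO in THP-1. It was 1503.1 to 1522.3 with diclofenac in THP-1, and 908.4 to 957.9 over the HL-60 arrays. THP-1 DMSO replicate 2 is the array with the high background, and both diclofenac sums were above that of replicate 1. The part of these markers' cells or state in the TNFRSF21 values was not tested.

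**Figure D1:**
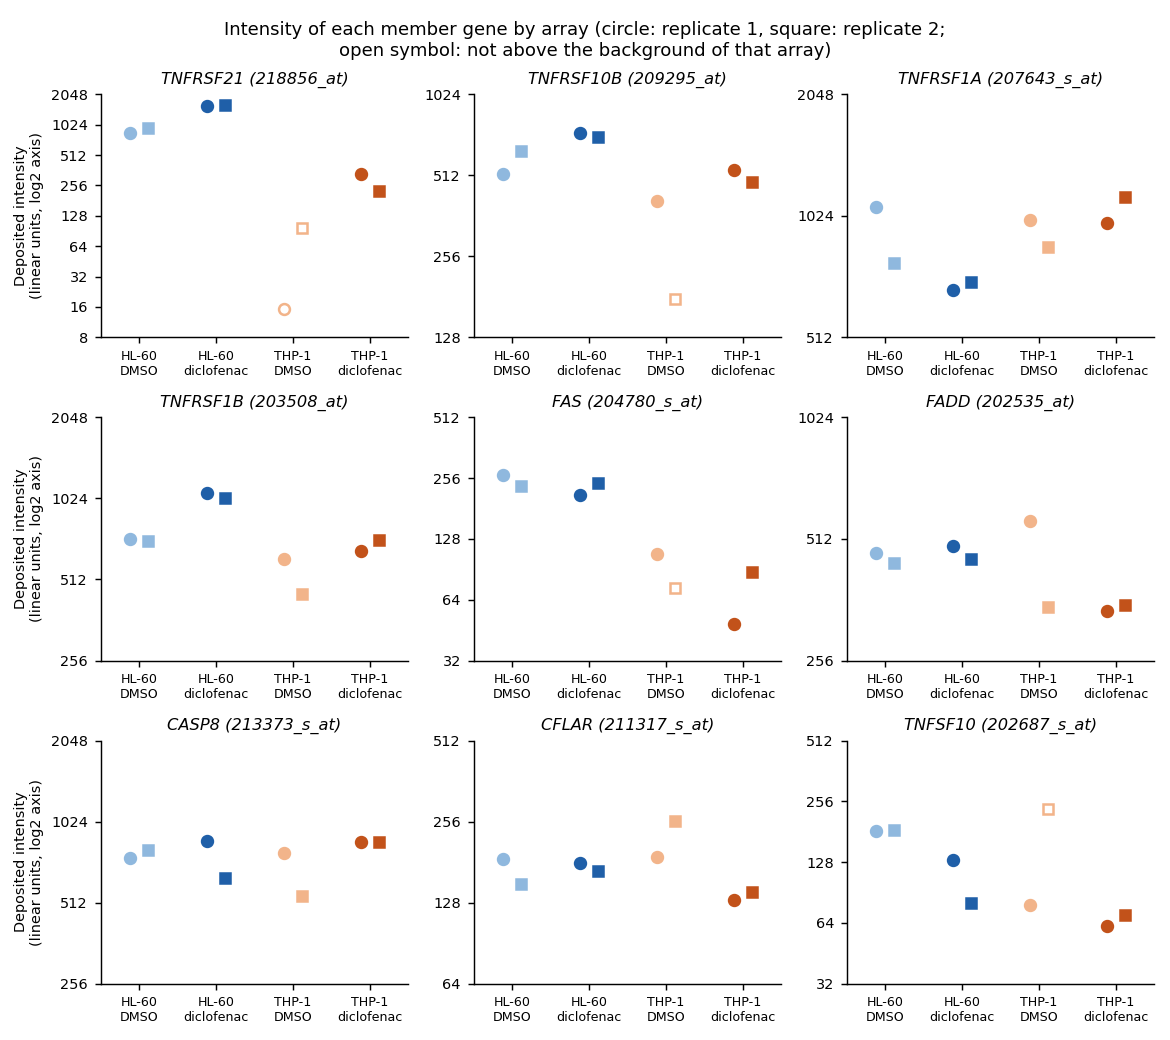
Deposited intensity (vertical axis, log2-spaced, a different range in each panel) of the probe set that stands for each of 9 genes, by group; circles are replicate 1, squares replicate 2, and open symbols are not above the background of their array. TNFRSF21 separates into 4 groups from 15.3 to 1586.6, whereas CASP8 stays between 541.4 and 867.6.

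TNFRSF10B, a receptor for TRAIL that recruits FADD, had intensities on probe set 209295_at of 519 and 629.6 with DMSO and 734.3 and 709.2 with diclofenac in HL-60. On the THP-1 arrays it had 411.8 and 177.3 with DMSO and 537 and 483.1 with diclofenac. Diclofenac arrays were higher in both lines without overlap, but the 177.3 came from THP-1 DMSO replicate 2 and was below its background. The log2 change was 0.35 ± 0.48 in HL-60 (limma adjusted p = 1.0) and 1.13 ± 0.48 in THP-1 (adjusted p = 0.46). Without that array the THP-1 value was 0.23, and without THP-1 DMSO replicate 1 it was 2.03, so its size differed with the DMSO array used. The other 2 probe sets of TNFRSF10B were dim, at 9.9 to 188.1 on all arrays. They gave 0.34 and 0.55 in HL-60 and 0.28 and -0.27 in THP-1, and neither was called in either line.

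TNFRSF1A, the TNF receptor with a death domain, had 1077 and 781.3 with DMSO and 671.5 and 702.6 with diclofenac in HL-60. The THP-1 arrays had 1001.6 and 857.6, then 983.9 and 1140.9. The HL-60 diclofenac pair was the lowest of the 4 groups, and the THP-1 groups overlapped. The changes were -0.39 ± 0.18 in HL-60 (limma adjusted p = 1.0) and 0.14 ± 0.18 in THP-1 (adjusted p = 0.73). With median centring they were -0.23 and 0.54. The THP-1 change was 0.05 when DMSO replicate 2 was left out. Without HL-60 DMSO replicate 1 the HL-60 value was -0.16, and without replicate 2 it was -0.61.

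TNFRSF1B, the TNF receptor without a death domain, which signals through TRAF proteins, had 723.4 and 709.9 with DMSO and 1075 and 1027.4 with diclofenac in HL-60. The values in THP-1 were 608.2 and 453.6, then 655.5 and 716.6. Diclofenac lay above DMSO in both lines without overlap. The change was 0.52 ± 0.22 in HL-60 (1.43-fold, limma adjusted p = 1.0) and 0.47 ± 0.22 in THP-1 (adjusted p = 0.48). In HL-60 it stayed between 0.51 and 0.53 whichever array was left out. In THP-1 it was 0.13 without DMSO replicate 2 and 0.80 without DMSO replicate 1, so its size differed with the DMSO array used.

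FAS, the receptor of FAS ligand, had its brightest probe set, 204780_s_at, at 266.7 and 234.3 with DMSO and 211.4 and 242.4 with diclofenac in HL-60. In THP-1 it was at 108 and 72.9, then 48.5 and 88.1. All 4 THP-1 values lay below all 4 HL-60 values, and the treatments overlapped in each line. The change was -0.03 ± 0.46 in HL-60 against 0.09 ± 0.46 in THP-1 (limma adjusted p = 1.0 and 0.94). Both signs depend on scaling: the HL-60 value was 0.04 with each array centred on its median, and the THP-1 value -0.26 on the deposited scale. Leaving out THP-1 DMSO replicate 2 gave -0.52 in THP-1. The other 3 FAS probe sets were above background on all 4 HL-60 arrays and on 0 of the 2 THP-1 diclofenac arrays.

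FADD, the adaptor that joins the receptors to CASP8, had 472 and 446.5 with DMSO and 490.7 and 457.7 with diclofenac in HL-60. For THP-1 they were 565.8 and 347.3, then 340.1 and 350.8. The HL-60 values lay within a narrow band, and the THP-1 DMSO arrays differed from each other more than the groups did. The change was 0.08 ± 0.33 in HL-60 against -0.06 ± 0.33 in THP-1 (limma adjusted p = 1.0 and 0.95). The THP-1 value was -0.65 without DMSO replicate 2 and 0.50 without replicate 1, opposite in sign.

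CASP8, the initiator protease, had on probe set 213373_s_at 747.4 and 806.8 with DMSO and 867.6 and 631.6 with diclofenac in HL-60. The THP-1 intensities were 781.7 and 541.4, then 859.5 and 862.2. The HL-60 groups overlapped, and the THP-1 diclofenac arrays were above both DMSO arrays. The change was -0.04 ± 0.23 in HL-60 (limma adjusted p = 1.0; 0.10 with median centring) and 0.44 ± 0.23 in THP-1 (adjusted p = 0.50). The THP-1 value was 0.11 without DMSO replicate 2 and 0.76 without replicate 1, so its size differed with the DMSO array used. The second probe set, 207686_s_at, gave 0.03 and -0.04.

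CFLAR, the regulator that competes with CASP8 in the receptor complex, gave different pictures on different probe sets. Probe set 209939_x_at had 319.9 and 338.7 with DMSO and 223.7 and 260 with diclofenac in HL-60. THP-1 gave 653.4 and 646.4, then 631.1 and 555.6, so all 4 THP-1 values were above all 4 HL-60 values. Its treatment change was -0.30 ± 0.20 in HL-60 against -0.08 ± 0.20 in THP-1 (limma adjusted p = 1.0 and 0.87). The probe set that stands for the gene, 211317_s_at, had 186.7 and 149.7, then 179.6 and 167.3 in HL-60. On the THP-1 arrays it had 188.7 and 257, then 131.3 and 140.3, with changes of 0.16 ± 0.32 and -0.20 ± 0.32. Of the 11 CFLAR probe sets, 10 were below 0 in HL-60 (range -0.44 to 0.16) and 10 in THP-1 (range -1.15 to 0.18), and 0 were called in either line. Without THP-1 DMSO replicate 2, 4 of 11 were above 0 in THP-1, and 214618_at turned from -1.15 to 0.25. These probe sets share much of 1 gene's sequence and 8 end in _x_at, so they are no separate measurements. The 2 lowest THP-1 values, -1.04 for 217654_at and -1.15 for 214618_at, came from probe sets above background on 1 array only, in each case a THP-1 DMSO array.

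**Figure D2:**
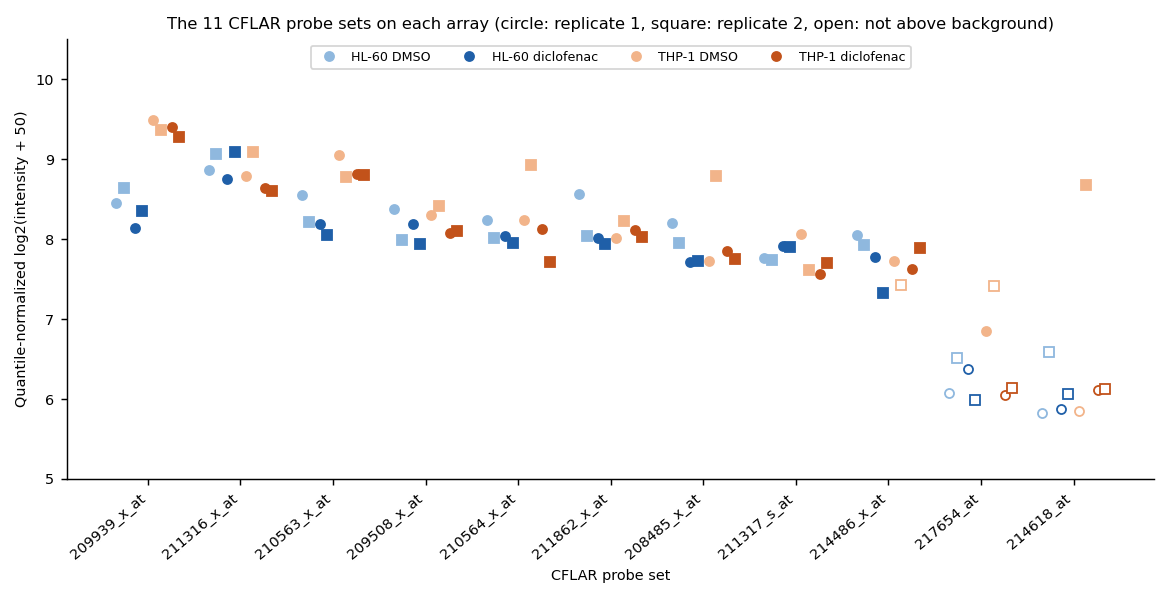
Quantile-normalized log2 intensity (plus 50) of the 11 CFLAR probe sets on each of the 8 arrays; circles are replicate 1, squares replicate 2, open symbols are not above background. On 209939_x_at all 4 THP-1 symbols lie above all 4 HL-60 symbols, which no other bright CFLAR probe set except 210563_x_at shows.

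TNFSF10, the gene of the ligand TRAIL, had on probe set 202687_s_at 183.5 and 184.6 with DMSO and 131.3 and 79.9 with diclofenac in HL-60. The THP-1 arrays had 78.4 and 235.8, then 61.5 and 69.7, where 235.8 is from the array with the high background and below it. Diclofenac arrays were lower in both lines without overlap. The change was -0.44 ± 0.36 in HL-60 (limma adjusted p = 1.0) and -0.37 ± 0.36 in THP-1 (adjusted p = 0.65; -0.23 without THP-1 DMSO replicate 2). All 3 TNFSF10 probe sets were below 0 in HL-60 (-0.44, -0.45 and -0.55) and in THP-1 (-0.37, -0.24 and -0.04).

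The comparison of diclofenac with DMSO in HL-60 asked which members responded in that line. With limma and Benjamini-Hochberg adjustment over all probe sets, 0 of 28 member probe sets passed, where 0.0045% of all probe sets did. At an unadjusted p under 0.05 there were 2 of 28, TNFRSF21 218856_at and TNFRSF1B, both higher, against 4.51% of all (2.38% higher). On the normalized scale, used for all such counts, diclofenac lay above DMSO without overlap for 7 of 28 (20.1% of all probe sets) and below for 9 of 28 (19.2%). The median change of the 28 was -0.12 and that of the 9 genes 0.08, against 0.00 over all.

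In THP-1, 2 of 28 member probe sets passed, both of TNFRSF21 and both higher, where 0.135% of all probe sets passed. This contrast was known when the genes were grouped, and nothing is read from that count. At an unadjusted p under 0.05 there were 4 of 28 (10.6% of all): 3 higher, both of TNFRSF21 and TNFRSF10B 209295_at (5.44% of all), and 1 lower, the dim CFLAR 217654_at (5.2%). Diclofenac lay above DMSO without overlap for 5 of 28 (18.6% of all) and below for 6 of 28 (20.9%). The median was -0.09 over the 28 and 0.14 over the 9 genes (0.05 without DMSO replicate 2), against -0.02 over all. Leaving out THP-1 DMSO replicate 2 turned the sign of 6 of 28 probe sets. Leaving out replicate 1 instead gave 10 calls, where 31.1% of all probe sets then passed. With 1 HL-60 array fewer, or 1 THP-1 diclofenac array fewer, there were 0 calls, whichever array it was, and 0 to 3 of 22215 probe sets passed.

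**Figure D3:**
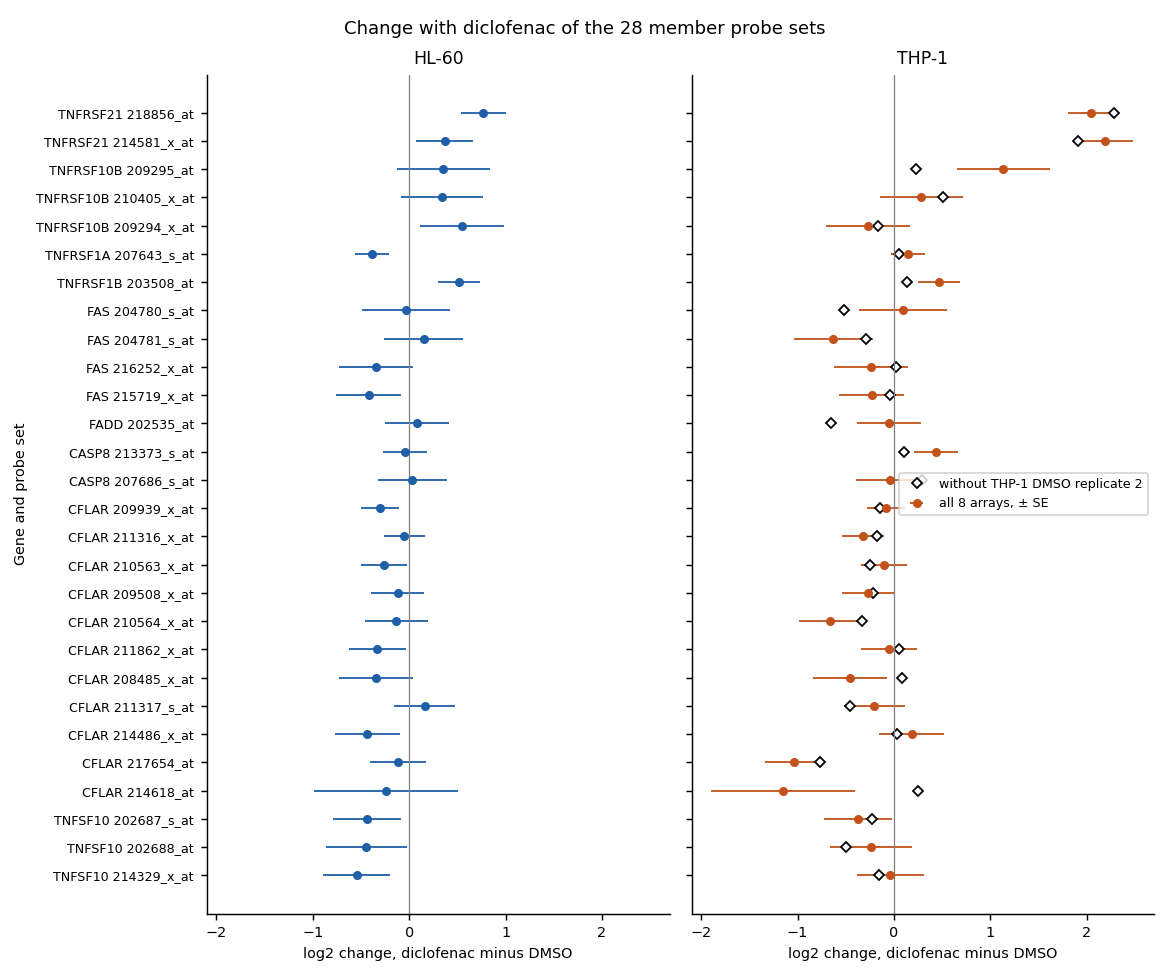
Change with diclofenac (log2, points with bars of 1 SE) of the 28 member probe sets in HL-60 and THP-1; diamonds give the THP-1 values without THP-1 DMSO replicate 2. The 2 TNFRSF21 probe sets lie near 2 in THP-1 with and without that array, whereas TNFRSF10B 209295_at moves from 1.13 to 0.23.

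The difference of the 2 responses was tested as an interaction. With limma 0 of 28 member probe sets passed, where 0.0045% of all did, and 2 of 28, both of TNFRSF21, had an unadjusted p under 0.05 against 6.95% of all (3.64% with a higher and 3.32% with a lower response in THP-1), from which nothing is read. TNFRSF10B 209295_at had 0.78 ± 0.68 and TNFRSF1A 0.53 ± 0.25 (limma adjusted p = 0.80 and 0.73). The TNFRSF10B difference was -0.14 without THP-1 DMSO replicate 2 and 1.68 without replicate 1, opposite in sign. Without THP-1 DMSO replicate 1 there were 5 calls, where 18.2% of all probe sets passed.

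Between the untreated lines, 3 of 28 member probe sets passed, where 15.3% of all probe sets did (7.72% lower and 7.59% higher in THP-1). These were both of TNFRSF21, described above, and CFLAR 209939_x_at, which was higher in THP-1 by 0.88 ± 0.20 (1.84-fold, limma adjusted p = 0.018, n = 2 arrays per group). The 11 CFLAR probe sets ranged from -0.41 to 1.06 with 1 called, and 211317_s_at, which stands for the gene, was at 0.09 ± 0.32. The CFLAR call was lost with median centring (0.65, adjusted p = 0.33, limma) and when either HL-60 DMSO array or either THP-1 diclofenac array was left out (0.79 to 0.96, limma adjusted p = 0.054 to 0.12). All 4 FAS probe sets were below 0, with -1.34 ± 0.46 for 204780_s_at (limma adjusted p = 0.092), which was -0.76 without THP-1 DMSO replicate 2 (adjusted p = 0.17). FAS 215719_x_at, not above background on either THP-1 DMSO array, was at least 1.52-fold lower (limma adjusted p = 0.076). TNFRSF10B 209295_at was at -1.22 ± 0.48 and at -0.32 without THP-1 DMSO replicate 2. THP-1 lay below HL-60 without overlap for 11 of 28 (24.7% of all probe sets) and above for 4 of 28 (24.8%). The median over the 9 genes was -0.52, and -0.18 without that array, against 0.03 over all. Without THP-1 DMSO replicate 1 there were 12 calls of 28, where 40.9% of all probe sets passed.

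Between the lines under diclofenac, a comparison that takes no DMSO array into its difference, 2 of 28 passed, where 13% of all probe sets did (6.79% higher and 6.22% lower in THP-1). They were TNFRSF21 218856_at, lower, and CFLAR 209939_x_at, higher in THP-1 by 1.09 ± 0.20 (2.14-fold, limma adjusted p = 0.0067). Here the 11 CFLAR probe sets ranged from -0.30 to 1.09 with 1 called, and 211317_s_at was at -0.28 ± 0.32, the opposite sign. The CFLAR call was lost with median centring (1.10, limma adjusted p = 0.12). It was also lost when HL-60 diclofenac replicate 1 or either THP-1 diclofenac array was left out (0.98 to 1.15, limma adjusted p = 0.062 to 0.094). THP-1 lay below HL-60 without overlap for 13 of 28 (30.3% of all) and above for 6 of 28 (28.6%).

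The DMSO arrays enter that comparison through the shared estimate of spread. Fitted on the 4 diclofenac arrays alone, 10 of 28 passed, 7 lower and 3 higher in THP-1, where 23.8% of all probe sets did. Lower were both probe sets of TNFRSF21, TNFRSF10B 209295_at at -0.47 ± 0.10 (limma adjusted p = 0.020), TNFRSF1B at -0.59 ± 0.09 (adjusted p = 0.0065) and 3 of 4 FAS probe sets. FAS 204780_s_at was at -1.27 ± 0.29 (limma adjusted p = 0.026). FAS 204781_s_at was not above background on the THP-1 diclofenac arrays. With all 8 arrays normalized together it was at least 2.13-fold lower. Higher were TNFRSF1A at 0.58 ± 0.11 (limma adjusted p = 0.013), CFLAR 209939_x_at at 1.15 and CFLAR 210563_x_at at 0.72. Without THP-1 DMSO replicate 2 there were 9 calls (22.8% of all), and without replicate 1 there were 8 (22.9%). On the diclofenac arrays alone FADD was at -0.38 ± 0.12 (limma adjusted p = 0.067) and CASP8 213373_s_at at 0.19 ± 0.14 (adjusted p = 0.41). Neither passed in any of these fits.

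**Figure D4:**
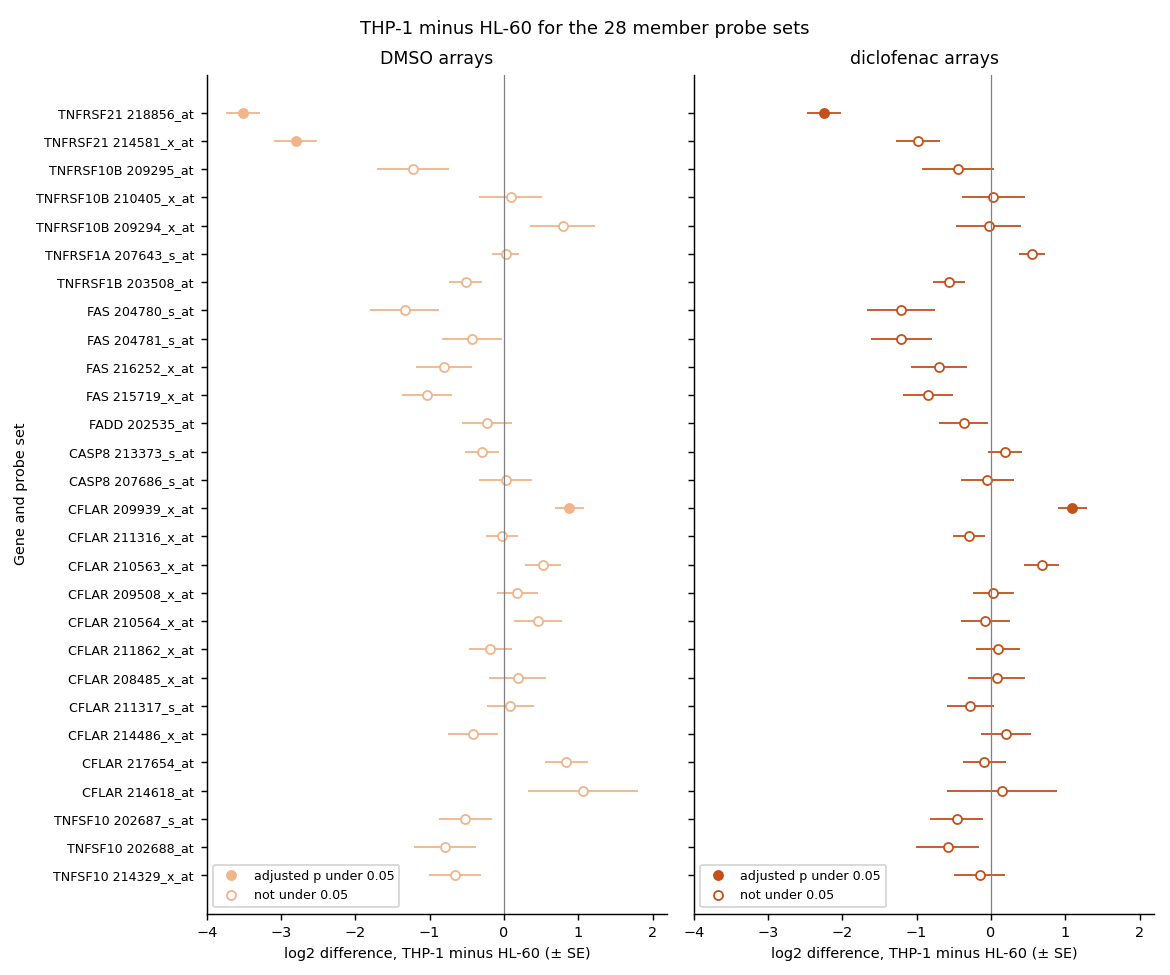
Difference between the lines (log2, THP-1 minus HL-60, with bars of 1 SE) for the 28 member probe sets under DMSO and under diclofenac; filled points have a limma adjusted p under 0.05 with all 8 arrays, which for TNFRSF21 is a description. TNFRSF21 and all FAS points lie below 0 in both panels, and CFLAR 209939_x_at lies at 0.88 and 1.09.

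The order of the groups differed from gene to gene. The order HL-60 diclofenac, HL-60 DMSO, THP-1 diclofenac, THP-1 DMSO, from high to low without overlap between neighbours, was seen for TNFRSF21 218856_at. TNFRSF1B had HL-60 diclofenac on top (1075 and 1027.4), while HL-60 DMSO (723.4 and 709.9) and THP-1 diclofenac (655.5 and 716.6) overlapped. For TNFRSF1A the lowest group was HL-60 diclofenac, and the other 3 overlapped between 781.3 and 1140.9. CASP8 213373_s_at showed no order of groups beyond its spread.

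The 5 genes whose pattern over the 8 arrays was most like that of TNFRSF21 218856_at, among 10022 compared, were LASP1 (Pearson r = 0.992), ELF4 (0.992), GNG5 (0.988), BST2 (0.987) and CEBPB (0.987). All points share the 4 groups and the same arrays, so these are descriptions. CEBPB, a myeloid transcription factor gene, had 3298.8 and 3444.7 with DMSO and 4691.1 and 4546.8 with diclofenac in HL-60. The values in THP-1 were 975.7 and 816.3, then 2163.3 and 2136.2, the same order of groups as TNFRSF21.

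Of 46 other genes of the pathway in 5 lists, 35 were measured. With limma 0 of 35 passed with diclofenac in HL-60 and 0 of 35 in THP-1 (0.0045% and 0.135% of all probe sets). At an unadjusted p under 0.05 there were 2 higher and 0 lower in HL-60, and 4 higher and 1 lower in THP-1. The median change was 0.05 in HL-60 against 0.33 in THP-1, and 0.08 in THP-1 without DMSO replicate 2. Over all probe sets these medians were 0.00, -0.02 and -0.01, in the same order.

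Among 3 other death receptor genes, NGFR, the neurotrophin receptor, had 6.2 and 12.4 with DMSO and 46 and 56.8 with diclofenac in HL-60, the latter just above background. Its changes were 0.87 ± 0.28 in HL-60 (at least 1.09-fold higher) and 0.71 ± 0.28 in THP-1 (limma adjusted p = 0.87 and 0.44). The THP-1 intensities were 11.2 and 26.2 with DMSO and 23.7 and 65.9 with diclofenac. They overlapped as deposited, and only the 65.9 was above background. Among the decoy receptor genes, whose products bind TRAIL or related ligands without passing on a death signal, TNFRSF10C was at -0.24 ± 0.42 in HL-60 against -0.10 ± 0.42 in THP-1. TNFRSF11B and TNFRSF10D were above background on 0 of 8 arrays.

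Among 5 other ligand genes, TNF had 241.6 and 156.9, then 201.6 and 163.2 in HL-60. For THP-1 they were 180.4 and 84.2 with DMSO and 359.4 and 272.4 with diclofenac, higher without overlap. The THP-1 change was 1.36 ± 0.49 (limma adjusted p = 0.41), and 0.59 without DMSO replicate 2, whose 84.2 was below its background.

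Among 15 adaptors and signalling proteins, TNFAIP3, a ubiquitin-editing enzyme that restrains NF-kB signals from TNF receptors, had 294.8 and 387.7 with DMSO and 565.6 and 591.1 with diclofenac in THP-1. In HL-60 it had 419.6 and 467.3, then 472.4 and 413.5 with overlap, whereas the THP-1 groups did not overlap. The changes were 0.84 ± 0.19 in THP-1 (limma adjusted p = 0.20; 0.80 without DMSO replicate 2) and 0.05 ± 0.19 in HL-60, and their difference was 0.79 (adjusted p = 0.62). TRAF3, an adaptor of several receptors of the family, was at 0.64 ± 0.22 in THP-1 (limma adjusted p = 0.40).

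Among 9 death effector domain proteins and partners or substrates of CASP8, DEDD had 414.3 and 480.2 with DMSO and 722.4 and 629.1 with diclofenac in HL-60, a change of 0.59 ± 0.16 (limma adjusted p = 0.76). TNFAIP8 was at -0.35 ± 0.09 in THP-1 (limma adjusted p = 0.29), with 3918.5 and 3363.1, then 3223.7 and 3181.1.

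Between the lines, more of these 35 genes passed: 5 higher and 4 lower in THP-1 under DMSO (15.3% of all probe sets) and 4 higher and 4 lower under diclofenac (13%). The genes named next were chosen after their values were seen. CASP6, an executioner caspase, had 526.1 to 790.4 on the HL-60 arrays and 60.9 to 84.7 on the THP-1 arrays. Its differences were -2.73 ± 0.37 and -2.27 ± 0.37 (limma adjusted p = 0.0016 and 0.0046). FAIM, an inhibitor of FAS-induced death, had 1.9 to 13.6 on the HL-60 arrays, below background, and 273.3 to 479.8 on the THP-1 arrays. It was at least 3.27-fold higher in THP-1 under DMSO and at least 4.34-fold under diclofenac (limma adjusted p = 0.0073 and 0.0054). TRAF5, an adaptor of the TRAF family, had 229.4 to 285.5 in HL-60 and 5.6 to 151.9 in THP-1, where it was below background. It was at least 2.34-fold and at least 3.27-fold lower in THP-1 (limma adjusted p = 0.031 and 0.017).

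NSMAF, which binds TNFRSF1A and couples it to a sphingomyelinase, differed by -1.22 ± 0.14 and -1.14 ± 0.14 (limma adjusted p = 0.00074 and 0.0011). RBCK1, a subunit of the linear ubiquitin ligase at the TNF receptor complex, differed by -1.06 ± 0.20 under DMSO (limma adjusted p = 0.0091) and was lower under diclofenac too (adjusted p = 0.013). CASP8AP2, a CASP8 partner, was higher by 0.83 and 0.61, and TRAP1, a mitochondrial chaperone found through TNFRSF1A, by 0.68 and 0.66. DEDD (0.73) and BID (0.44), a CASP8 substrate, passed under DMSO only, and PEA15 (0.71), which binds FADD and CASP8, under diclofenac only; whether the line differences differed between treatments is the interaction, in which 0 of 35 passed. Leaving out 1 array ended none of the calls of NSMAF or the DMSO call of CASP6, and ended at least 1 call of each other gene here. Under DMSO, CASP8AP2 was called in 7 of 8 such fits, FAIM and RBCK1 in 6, DEDD in 5, TRAF5 and TRAP1 in 2 and BID in 1. Under diclofenac, CASP6 and FAIM were called in 6 of 8, TRAF5, RBCK1 and PEA15 in 4, and TRAP1 and CASP8AP2 in 2. On the deposited scale the DMSO calls of TRAF5, TRAP1 and BID and the diclofenac call of TRAP1 were lost. Median centring ended the DMSO calls of RBCK1, TRAP1, DEDD, CASP8AP2 and BID and the diclofenac calls of NSMAF, RBCK1, TRAP1, PEA15 and CASP8AP2.

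**Figure D5:**
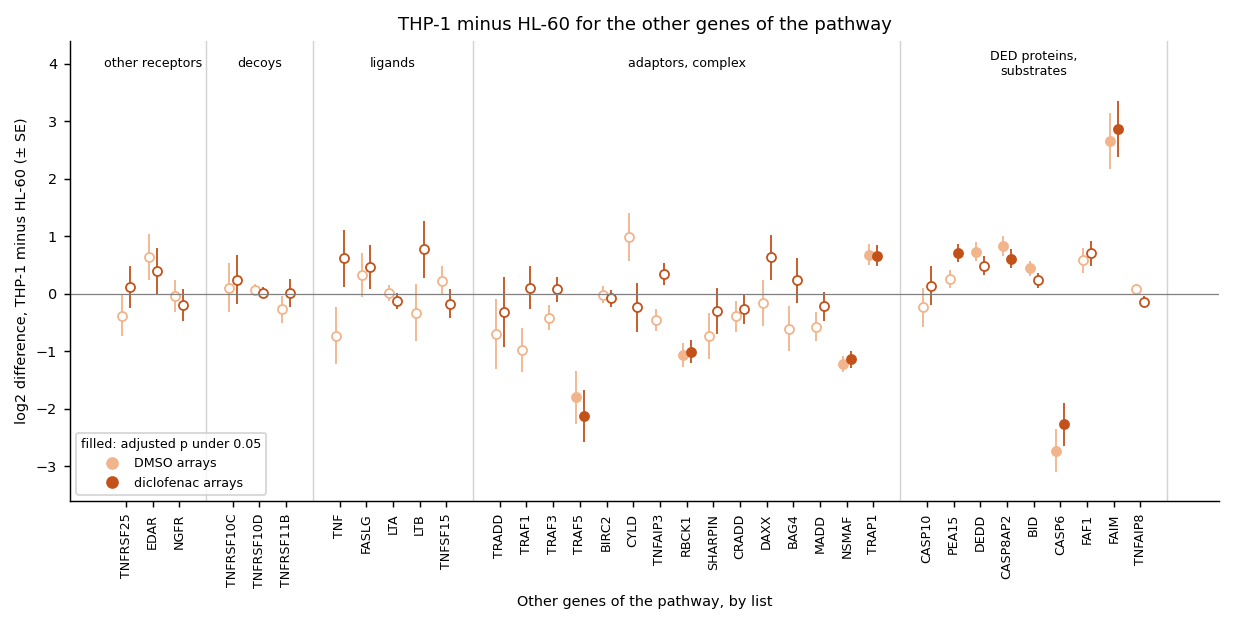
Difference between the lines (log2, THP-1 minus HL-60, with bars of 1 SE) of the 35 other pathway genes, grouped by list, under DMSO (light) and diclofenac (dark); filled points have a limma adjusted p under 0.05. FAIM lies highest, and CASP6 and TRAF5 lie lowest, under both treatments.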

How the data were processed

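Biotinylated cRNA from total RNA was hybridised to 8 Affymetrix human arrays, per the labels' protocols. The deposited values are linear intensities, 1 per probe set, from 0.1 to 39370.8. The authors' algorithm is not given in the sources used here. Each array's mean, without the outer 2% at each end, lay between 500.113 and 500.176, as after scaling to a common target.

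Of 22277 probe sets, 62 controls were left out. GEO's platform annotation gave 19064 of the rest 1 symbol, 1043 several and 2108 none, and only those with 1 were named. An offset of 50 was added, log2 taken and arrays quantile-normalized. All 8 arrays were fitted together in limma 3.58.1 (R 4.3.3) with an intensity trend (4 residual and 4.41 prior degrees of freedom), with Benjamini-Hochberg adjustment over 22215 probe sets in each of 5 comparisons and a threshold of 0.05. The script was tested on simulated data. The brightest probe set stood for a gene, with _x_at only where no other existed. Promoter sequences came from RefSeq (GRCh38.p14).

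Pathway genes were named if the unadjusted p was under 0.05 in a treatment comparison, otherwise the 2 largest changes of a list. Likeness was Pearson's r over the arrays. Members, lists and tests were chosen with earlier results of these data known. Other scalings, offset, filter, trend, replicate block and left-out arrays were tried. The number of arrays, 2 per group, limits the precision.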

Additional observations from a re-analysis of the deposited data

Results flagged for a closer look

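TRAF1 and CYLD, genes of signalling proteins at TNF receptors, had opposite signs in the 2 lines without overlap between DMSO and diclofenac arrays on the normalized scale, and in neither case did the difference pass. TRAF1 205599_at had -0.49 in HL-60 against 0.60 in THP-1, a difference of 1.08 ± 0.53 (limma adjusted p = 0.73). It was above background on 4 of 8 arrays and on 0 of the THP-1 DMSO arrays, and the deposited THP-1 intensities overlapped, at 11 and 84.8 with DMSO and 92.8 and 29.4 with diclofenac. Without THP-1 DMSO replicate 2 the difference was 1.26. CYLD 213295_at had 0.48 in HL-60 against -0.74 in THP-1, a difference of -1.22 ± 0.60 (limma adjusted p = 0.73). On THP-1 DMSO replicate 2 CYLD had 542.6, against 116.2 to 212.3 on the other 7 arrays, and without that array the difference was -0.67.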

How the results depend on the processing

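Counts of member probe sets called are those of limma at an adjusted p under 0.05. For diclofenac against DMSO in THP-1, 2 members passed, both of TNFRSF21. The count was 1 on the deposited scale (0.23% of all probe sets passed), and 0 with median centring or without the intensity trend, where 0 of 22215 passed at all. It was 0 with the THP-1 arrays fitted alone (0.0045% of all) and 0 with the replicate number as a block (0.135%). With median centring the TNFRSF21 differences were 2.07 and 2.22. Between the lines under diclofenac, 2 passed. The count was 4 on the deposited scale (12.6% of all probe sets) or without the dimmest 40% (23.5%), 1 with median centring (4.63%) and 10 with the diclofenac arrays alone (23.8%). Under DMSO it was 2 to 4 in these settings, against 3, where 5.16% to 28.4% of all passed. Leaving out 1 array gave 0 to 10 calls in THP-1, 0 to 5 for the difference of responses, 2 to 12 between the lines under DMSO and 1 to 9 under diclofenac, with 0 in HL-60 each time. The highest of these came without THP-1 DMSO replicate 1 (10, 5 and 12) or replicate 2 (9), when the other, lone array is assumed to vary like the other groups. No value that had been called changed sign. Replicates with the same number deviated together with r = -0.0043 (HL-60) and -0.0080 (THP-1), so the numbers were not taken as pairs. The block left each difference as it was, and the member counts of the other 4 comparisons stayed at 0, 0, 3 and 2. With the block, 0.0045%, 0%, 13.2% and 11% of all probe sets passed, and CFLAR 209939_x_at under DMSO was at limma adjusted p = 0.043. Relative to quantile normalization, the deposited scale moved the median THP-1 change of all probe sets to -0.20. Values near the background of THP-1 DMSO replicate 2, where 50.3% of probe sets were above it, are limited by that signal. The cause of these shifts was not tested.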
